A study of Mus musculus with 6 samples.

Results

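Peaks of FXR binding that lay in exons were described here in mouse liver, in 3 annotation classes that were kept apart: coding exons, 5' UTRs and the exons of non-coding transcripts. A peak belonged to a class when the deposited annotation of its centre began with exon, 5' UTR or non-coding. The list of peaks from control livers held 782 such peaks among 20040 (3.9%), of which 557 lay in coding exons, 143 in 5' UTRs and 82 in non-coding exons. The list from livers without hepatocyte BCL6 held 525 among 12495 (4.2%), of which 380 lay in coding exons, 89 in 5' UTRs and 56 in non-coding exons. Together the lists had 1307 such peaks among 32535.

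FXR ChIP-seq was carried out on livers of male C57BL/6 mice. All mice carried floxed Bcl6 alleles. The Bcl6 fl/fl controls, written WT here, had no Cre. The Alb-cre, Bcl6 fl/fl mice, written LKO, lost Bcl6 where the albumin promoter drives Cre, mainly in hepatocytes. Liver cells in which it does not drive Cre kept the gene. Each genotype had 2 ChIP libraries and 1 input library of chromatin that was not immunoprecipitated, and no ages or treatments are stated in the labels. The ChIP libraries held 19022618 and 2883717 tags in WT and 21287263 and 22637613 in LKO, and the inputs held 6964271 and 6935001. WT replicate 2 was therefore the shallowest ChIP library by far, and levels are therefore given for each library. The lists themselves were called on pooled libraries and cannot be given without it. Whole liver was used, so a lower signal at a peak cannot be assigned to fewer bound cells or to weaker binding per cell.

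FXR, encoded by Nr1h4, is the nuclear receptor that senses bile acids, and BCL6 is a transcriptional repressor. FXR binds DNA mostly as a heterodimer with RXR on paired hexamers. Its classical element, IR1, is an inverted repeat in which the hexamer AGGTCA is followed, after a spacer of 1 base, by its reverse complement TGACCT. The direct repeat DR1, with the same hexamer repeated after 1 base, is the classical element of several other RXR partners of hepatocytes. Nuclear receptor sites are best known from promoters, introns and the space between genes, but exons hold them as well, where the bases of the element also encode protein.

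A motif was counted when at most 2 of the 12 scored bases of an IR1 departed from these letters within 100 bp of the centre of a peak. The sequences below are a selection of the elements with at most 1 mismatch in exon peaks. Such an element was found in 24 WT and 21 LKO coding exon peaks. The sequences were read from the RefSeq reference GRCm38.p6, whose coordinates are those of mm10. Each runs 5′ to 3′ on the plus strand and holds the 13-base site with 5 bases on either side, and capitals mark bases that match the IR1. The first 5 belong to the strongest peaks of their class found in both genotypes with at most 1 mismatch, 4 in coding exons and 1 in a 5' UTR. The 5' UTR peak, that of Tex33, was the only one of its class in the WT list with such a site. It ranked 6782 of that list by mean log2 tags.
Myo1c, exon 10 of 32, site chr11:75661597-75661609: tcaatAGGTCAcTGgCCTctaag
Midn, exon 6 of 9, site chr10:80153814-80153826: tctgcAGGTCAgTGACtTtctgt
Pcnx, exon 11 of 36, site chr12:81950165-81950177: gcagcAGGaCAtTGACCTaagcc
Creb3l3, exon 4 of 12, site chr10:81091874-81091886: acaggAGGTCAagGACCTccatg
Tex33, 5' UTR in exon 2 of 7, site chr15:78395664-78395676: agcccAtGTCAcTGACCTgaaga
The 3 sites that follow, chosen after the values were seen, matched all 12 scored bases, and all of them lay in coding exons and were found in both genotypes.
Cog3, exon 21 of 23, site chr14:75708034-75708046: ccacgAGGTCAtTGACCTttgct
Pdp2, exon 2 of 2, site chr8:104593771-104593783: cgaacAGGTCAgTGACCTgctcc
Mtmr11, exon 14 of 17, site chr3:96169208-96169220: tggacAGGTCAgTGACCTctttt
In addition, 2 non-coding exon peaks of the LKO list had 1 mismatch.
Irak3, exon 8 of 12 of a non-coding transcript, site chr10:120165082-120165094: ctctcAGGTCAtTtACCTggaaa
Tipin, exon 7 of 7 of a non-coding transcript, site chr9:64304919-64304931: attagAGGTCAaTGtCCTgcttt

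The sites of Myo1c, Pcnx, Creb3l3, Cog3 and Pdp2 lay wholly inside the exon, whereas those of Midn, Tex33 and Mtmr11 ran across an exon edge. Myo1c encodes an unconventional myosin, Creb3l3 a liver transcription factor of lipid metabolism, Cog3 a subunit of a Golgi tethering complex and Pdp2 a phosphatase that activates pyruvate dehydrogenase. The exact matches were not under the highest of these peaks. The exact site of Cog3 sat under a peak that ranked 3944 of the WT list by mean log2 tags, that of Pdp2 ranked 5566 and that of Mtmr11 ranked 13007, whereas the Myo1c peak with 1 mismatch ranked 29. At the Mtmr11 site the gene with the nearest transcription start site (TSS) was Sf3b4, a splicing factor gene, although the peak lay in an Mtmr11 exon.

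The design allowed FXR peaks to be placed in the gene body, and the classes differed in size. Coding exons, counted without regard to promoters that overlap them, made up 1.33% of the sequenced genome in the RefSeq annotation and held 2.78% of the WT peaks (95% Wilson interval 2.56 to 3.02%) and 3.04% of the LKO peaks (2.75 to 3.36%). For 5' UTRs the share of the genome was 0.211%, and the share of peaks was 0.714% in WT (0.606 to 0.84%) and 0.712% in LKO (0.579 to 0.876%). Non-coding exons, at 0.385% of the genome, held 0.409% of the WT peaks and 0.448% of the LKO peaks. Coding exons and 5' UTRs thus held a larger share of the peaks than of the genome in both lists, and the intervals of the non-coding class, 0.33 to 0.508% and 0.345 to 0.581%, contained its share of the genome. Each genome share counted every base of the class, including bases that the annotation gives to another class first. The match of the non-coding class is therefore between unlike sets. All intervals in the text cover counting error only.

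The class of 5' UTR peaks was in part the downstream edge of promoters. The deposited annotation assigned everything from 1 kb before to 100 bp after a TSS to promoters, and the nearest 5' UTR peak in either list lay 101 bp from a TSS. The median distance was 192 bp in WT and 185 bp in LKO, and 88.8% of the WT and 89.9% of the LKO 5' UTR peaks lay within 1000 bp of a TSS. Coding exon peaks had a median distance of 6549 bp in WT and 6859 bp in LKO, and non-coding exon peaks 5616 and 5728 bp. Of the 143 WT 5' UTR peaks, 117 were in the first exon of their transcript and 25 in an internal one. Of the 557 WT coding exon peaks, 378 were in internal exons, 89 in the first exon, 76 in the last and 14 in the exon of single-exon genes.

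The host exons were short beside the peaks. The deposited peaks were all 211 bp long in WT and 205 bp in LKO, and the median host coding exon measured 216 and 228 bp. A peak fitted whole into its coding exon in 29.9% of the WT and 32.1% of the LKO cases whose exon could be found in the reference annotation, which was 548 of 557 and 374 of 380. The class of a coding exon peak was therefore sensitive to where its centre was called. Among the 306 pairs of overlapping peaks whose WT member was a coding exon peak, 265 kept that class in LKO and 35 became intron peaks, with centres a median of 16.5 bp apart. The 5' UTR class was kept in 58 of 70 pairs and the non-coding class in 38 of 39. When the class was computed again from the reference, 552 of 557 WT and 376 of 380 LKO coding exon peaks kept it, but 59 of 82 and 37 of 56 non-coding exon peaks did, as 10 and 9 of those fell in a 3' UTR and 8 and 7 in a coding exon of another transcript.

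The exon that held a peak often belonged to a gene other than the one with the nearest TSS. Host and nearest gene differed for 158 of 553 coding exon peaks in WT (28.6%, 95% Wilson interval 25 to 32.5%) and for 109 of 379 in LKO (28.8%, 24.4 to 33.5%). They differed for 21 of 81 and 15 of 56 non-coding exon peaks, but for 4 of 143 and 3 of 89 5' UTR peaks. Several peaks next to genes of bile acid metabolism were of this kind. The peak assigned to Cyp27a1, which encodes the sterol 27-hydroxylase of the alternative bile acid pathway, lay in exon 20 of 20 of Ttll4, and the one assigned to Abcb4, the canalicular phospholipid exporter, lay in exon 26 of 28 of Abcb1b. The peak assigned to Abcc2, a canalicular conjugate exporter, lay in exon 9 of 9 of Cutc.

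The classes were richer in GC than the pooled other peaks. The median GC content was 56.4% in WT coding exon peaks, 64.5% in 5' UTR peaks and 54.3% in non-coding exon peaks, against 49.8% in the peaks outside the 3 classes. In LKO the medians were 57.1%, 63.4% and 53.7% against 50.7%. The median ratio of observed to expected CpG was 0.68 in WT 5' UTR peaks and 0.424 in coding exon peaks, against 0.231 in other peaks. Promoter peaks, which are among the other peaks, had a median GC content of 59.2% in WT and 59.5% in LKO and a CpG ratio of 0.618 and 0.595, between those of 5' UTR and coding exon peaks. Repeat-masked bases made up 4.11% of WT coding exon peaks and 11.3% of other peaks.

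The IR1 was more frequent in coding exon peaks than in intron, intergenic or promoter peaks. It was found in 97 of 557 WT coding exon peaks (17.4%, 14.5 to 20.8%) and in 11.7% of the WT peaks outside the 3 classes, a difference of 5.68 percentage points (95% Newcombe interval 2.72 to 9.08). In LKO it was found in 84 of 380 (22.1%, 18.2 to 26.5%) against 16.1%, a difference of 5.99 points (2.05 to 10.5). The difference was 4.86 points (1.86 to 8.29) from WT intron peaks, 5.18 (2.15 to 8.63) from intergenic peaks and 11 (7.89 to 14.5) from promoter peaks, and in LKO 4.63 (0.626 to 9.17), 5.52 (1.47 to 10.1) and 13.7 (9.53 to 18.3). From peaks at gene ends, which held an IR1 in 13.5% of WT and 18.4% of LKO cases, it was not resolved, at 3.92 (-0.289 to 8.14) and 3.74 points (-2.1 to 9.51). The lists share most of their strong peaks and are not independent of each other. The difference from the pooled other peaks was present in the weaker and the stronger 50% of each list by level, at 6.12 and 4.66 points in WT and at 4.92 and 5.88 points in LKO, with all 4 intervals above 0. The lower bounds came as close to 0 as 0.14 points, in the weaker 50% of LKO.

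The motif was rarer in the surroundings of the peaks. Windows of the same length 2 kb to either side of the coding exon peaks held an IR1 in 0.898% of cases in WT and 0.789% in LKO. Over all RefSeq coding exons, windows centred on the exon held one in 1.63%, over all 5' UTRs in 1.02% and over all non-coding exons in 1.29%. The same windows held a DR1 in 2.86% of all coding exons, against 11% of the WT and 11.1% of the LKO coding exon peaks. For DR1 the coding exon peaks differed from other peaks by -1.95 points in WT (interval -4.33 to 0.951) and -0.894 points in LKO (-3.73 to 2.7), so that no excess was resolved, and the same held for a single exact hexamer, at 42.7% against 40.4% in WT and 43.4% against 41.4% in LKO.

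**Figure D1:**
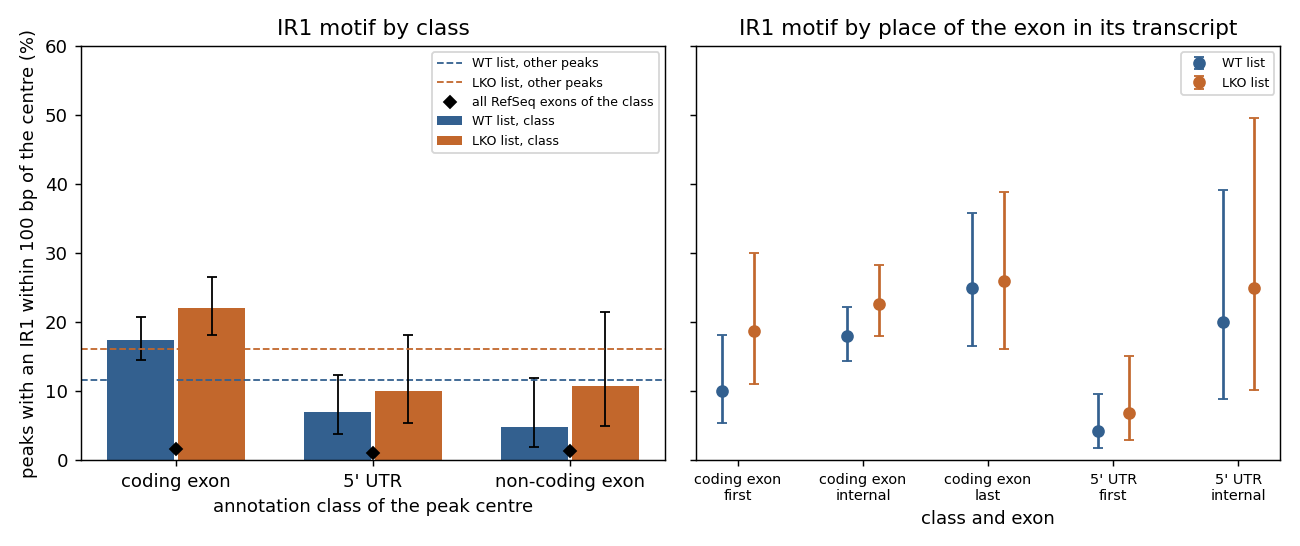
Share of peaks with an IR1 within 100 bp of the centre (y axis, percent), by annotation class (left) and by the place of the exon in its transcript (right), in the WT and LKO lists. Bars and points are shares with 95% Wilson intervals, dashed lines the peaks outside the 3 classes, diamonds all RefSeq exons of the class. Coding exon peaks stood at 17.4% and 22.1%, and first-exon 5' UTR peaks at 4.27% and 6.85%.

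Peaks in 5' UTRs, like promoter peaks, held fewer nuclear receptor hexamers than the pooled other peaks. An exact AGGTCA, on either strand, was found in 31 of 143 WT 5' UTR peaks (21.7%), against 40.4% of other peaks, a difference of -18.7 points (-24.7 to -11.2). In LKO it was found in 22 of 89 (24.7%), a difference of -16.7 points (-24.5 to -6.75). Over all RefSeq 5' UTRs the share was 10.4%. An IR1 was found in 10 WT (6.99%) and 9 LKO (10.1%) 5' UTR peaks, and a DR1 in 6 (4.2%) and 5 (5.62%). The WT DR1 share differed from that of other peaks by -8.71 points (-11 to -4.03), while the intervals of the IR1 differences included 0 in both lists. Promoter peaks held an exact hexamer in 26.8% of WT and 28.4% of LKO cases, an IR1 in 6.41% and 8.39% and a DR1 in 7.94% and 8.25%, and for all 6 comparisons the interval of the difference between 5' UTR and promoter peaks included 0.

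Within the classes the motif followed the place of the exon. An IR1 was found in 9 of 89 WT coding peaks in first exons (10.1%) and in 87 of 454 in later exons (19.2%), a difference of 9.05 points (0.374 to 15.1). In LKO the values were 12 of 64 (18.8%) and 72 of 309 (23.3%), and the interval of that difference, -7.49 to 13.7 points, included 0. Among 5' UTR peaks it was found in 5 of 117 in first exons (4.27%) and in 5 of 25 in internal exons in WT, and in 5 of 73 (6.85%) and 4 of 16 (25%) in LKO, with differences of 15.7 (3.37 to 35.0) and 18.2 points (1.21 to 43.0). First exons were also richer in GC, with a median of 65.9% in WT coding peaks against 55.5% in later exons. The part of base composition in these differences was not tested.

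Most sites of coding and non-coding exon peaks lay inside the exon itself. The centre of each peak lay in the exon by the definition of the class, and sites were sought within 100 bp of it. A majority inside is therefore favoured by the definition, and the share to be expected from it was not computed. Where the host exon and the site were both known, the 13 bases lay wholly within the exon for 79 of 95 WT coding exon peaks, across its edge for 13 and outside it for 3. In LKO the counts were 71, 9 and 3 of 83. For 5' UTR peaks 6 of 9 WT and 3 of 8 LKO sites lay inside, and for non-coding exons 4 of 4 and 6 of 6. Non-coding exon peaks held an IR1 in 4.88% of WT and 10.7% of LKO cases, and the intervals of the difference from other peaks, -9.86 to 0.16 and -11.2 to 5.37 points, included 0.

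The next question was which exon peaks were found in both genotypes. Overlap by at least 1 bp counted as shared. Of all WT peaks, 49.5% were overlapped by an LKO peak, and of all LKO peaks, 79.4% by a WT peak. The difference between these 2 shares follows from the longer WT list. Each class was set against the peaks outside the 3 classes of its own list.

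Of the 557 WT coding exon peaks, 306 were shared (54.9%, 50.8 to 59.0%), against 49.3% of other WT peaks, a difference of 5.59 points (1.38 to 9.74). This difference was not resolved within peaks of like strength. It was 3.19 points in the weaker 50% of the list (-1.95 to 9.03) and 2.85 points in the stronger 50% (-2.18 to 7.2). Of the 143 WT 5' UTR peaks 70 were shared (49.0%), and of the 82 non-coding exon peaks 39 (47.6%), both within their intervals of the other peaks.

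Of the LKO peaks, 298 of 380 in coding exons were shared (78.4%), 78 of 89 in 5' UTRs (87.6%) and 44 of 56 in non-coding exons (78.6%), against 79.3% of other LKO peaks. The largest difference was that of the 5' UTRs, 8.29 points, whose interval, -0.169 to 13.7, just included 0. Shared WT coding exon peaks held an IR1 in 23.2% of cases and unshared ones in 10.4%, and the peaks outside the 3 classes did so in 16.5% and 7.1%. In LKO the shares were 22.5% and 20.7% in coding exons and 16.7% and 14.0% elsewhere.

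**Figure D2:**
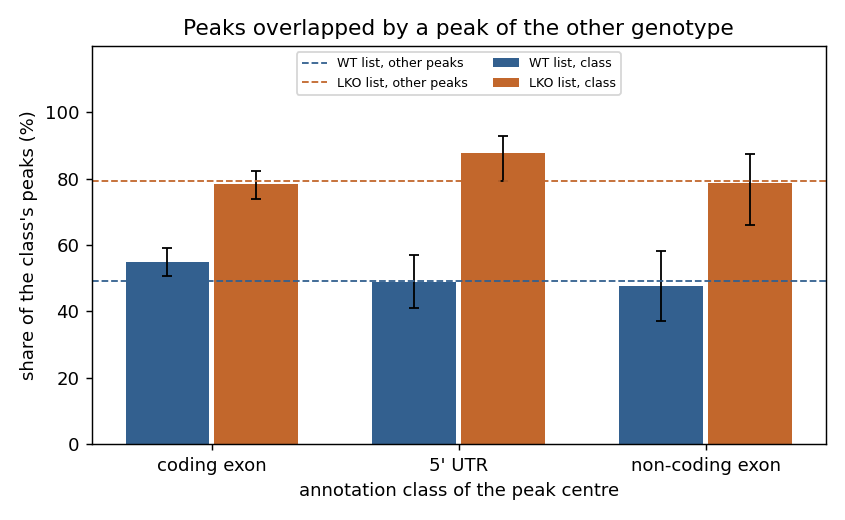
Share of the peaks of each class that were overlapped by a peak of the other genotype's list (y axis, percent), with 95% Wilson intervals as error bars. Dashed lines give the peaks outside the 3 classes. WT bars stood at 54.9%, 49.0% and 47.6%, and LKO bars at 78.4%, 87.6% and 78.6%.

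Strong peaks were shared almost throughout, and the few that were not had high input. Among the strongest 10% of the WT list, 97 of 106 peaks in the 3 classes were shared, and 8 of the 9 unshared ones lay above the 95th percentile of input for their list. Of the 97 shared ones 21.6% did, a difference of 67.2 points (33.6 to 78.8). In the strongest 10% of the LKO list 58 of 62 were shared, and all 4 unshared ones had high input, against 27.6% of the shared ones. Strong unshared peaks outside the 3 classes had high input in 63 of 86 cases in WT and in 12 of 26 in LKO, against 19.5% and 23.1% of the shared ones. Below the strongest 10% the order turned, with high input in 3.91% of unshared and 7.55% of shared WT peaks of the 3 classes. This split was chosen after the values were seen, and the part of the input in these calls was not tested.

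The 2 strongest unshared peaks of each class and list were mostly peaks of high input. In the coding exons of WT they were Fam92a, in exon 1 of a membrane remodelling gene that the reference calls Cibar1, and the last exon of Sema6b near Lrg1, with log2 tags of 6.62 and 7.20 and of 6.36 and 6.73 in the replicates but 4.44 and 2.95 in input. Agpat5, an acyltransferase of phospholipid synthesis, and Wdsub1 led the 5' UTR class, and Vav2 and Pex26 the non-coding class. In LKO the strongest were Ccdc105 and Svop in coding exons, Gatad2a and Ube3c in 5' UTRs, and Tipin and Numb in non-coding exons. High input was seen for 9 of these 12, and for the Pex26, Tipin and Numb peaks it was not.

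Peaks in the first 2 classes carried slightly more FXR signal than other peaks. Levels are the deposited regularized log2 tags per library, which are comparable within a list but not between the lists. The median over WT coding exon peaks was 4.44 in replicate 1 and 5.07 in replicate 2, against 4.33 and 4.90 over other peaks. In LKO it was 4.94 and 4.83 against 4.86 and 4.67. The excess was thus 0.11 and 0.16 in the WT libraries and 0.07 and 0.15 in the LKO libraries, in the same direction in all 4, and small beside the range between the quartiles of single peaks, 3.80 to 5.35 in WT replicate 1.

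5' UTR peaks stood 0.29 and 0.20 above other peaks in WT and 0.12 and 0.13 in LKO. Promoter peaks stood 0.21 and 0.18 above in WT and 0.14 and 0.16 in LKO. Input was higher at the 5' UTR and coding exon peaks too. It exceeded the 95th percentile of the list at 14.7% of WT and 18% of LKO 5' UTR peaks, against 4.86% and 4.79% of other peaks, and at 7.72% and 8.68% of coding exon peaks, with the intervals of all 4 differences above 0. Promoter peaks had high input in 12.9% of WT and 11% of LKO cases. Without the peaks of high input the mean 5' UTR excess was 0.12 in WT and -0.02 in LKO, so the LKO excess ended, while that of coding exons was 0.12 and 0.06. Non-coding exon peaks stood 0.14 above other peaks in WT replicate 1 while the difference was -0.07 in replicate 2 and -0.08 and -0.03 in LKO, so no direction held.

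**Figure D3:**
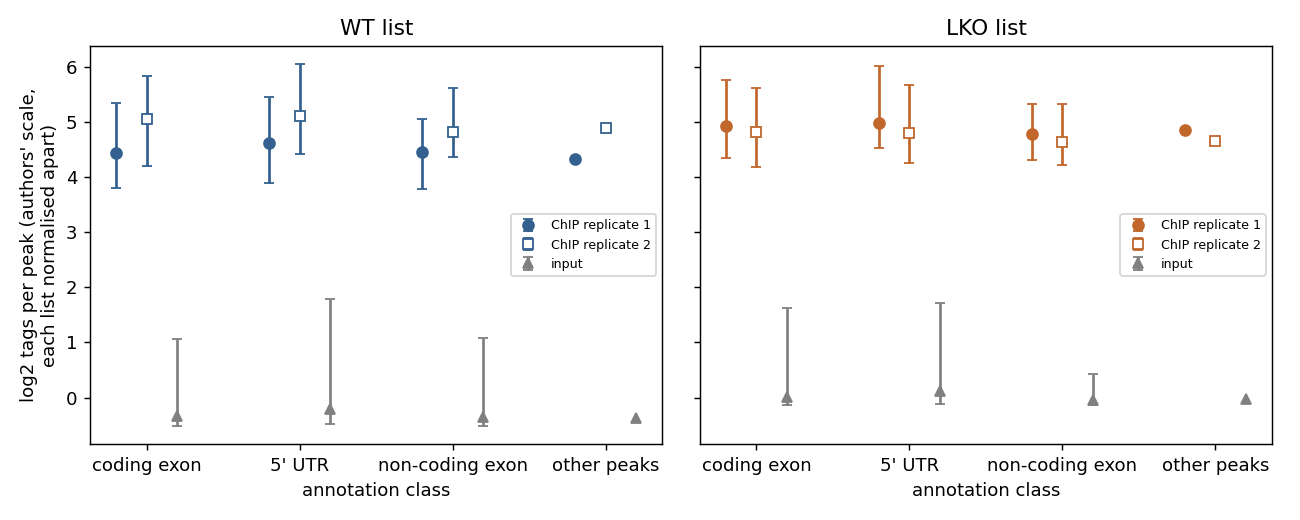
Deposited log2 tags per peak (y axis) in each ChIP and input library of the WT list (left) and LKO list (right), by class. Symbols are medians over peaks, bars the quartiles, and the symbols at the right of each panel are medians of the peaks outside the 3 classes. 5' UTR peaks had WT medians of 4.62 and 5.11 against 4.33 and 4.90.

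The levels of the exon peaks were correlated between the replicates of a genotype, as were those of other peaks. Over the 782 WT peaks of the 3 classes, which share their libraries and normalisation, Pearson's r between the replicates was 0.885, and over the 525 LKO peaks it was 0.907. The SD of the difference between replicates was 0.56 in WT and 0.44 in LKO. Over the peaks outside the 3 classes, r was 0.861 in WT and 0.896 in LKO.

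To set the genotypes side by side, each library was centred on its median over the 9918 shared pairs. No test was run between genotypes, because the tables were normalised separately, and with 2 libraries against 2 an exact two-sided permutation test could not give a p below 0.333. Over all 9918 pairs, both LKO values were above both WT values in 29.8% and below both in 25.2%. Coding exon pairs did not stand apart from this: 93 of 306 were above (30.4%) and 86 below (28.1%), and the median LKO minus WT difference was 0.02, against 0.03 over all pairs. Non-coding exon pairs gave 12 of 39 above (30.8%) and 11 below (28.2%), with a median of 0.07.

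Shared 5' UTR pairs varied least. Both LKO values were above both WT values in 15 of 70 (21.4%) and below in 13 (18.6%), the median difference was -0.04, and the SD over pairs was 0.43, against 0.66 over coding exon pairs and 0.60 over all pairs. Promoter pairs were similar, with 24.9% above, 21.9% below and an SD of 0.46. With WT replicate 2 left out, both LKO values were above WT replicate 1 in 42.8% of coding exon, 32.9% of 5' UTR and 35.9% of non-coding exon pairs, against 41.1% of all pairs, and below it in 38.9%, 34.3% and 43.6%, against 35.3%. Without that library the coding exon median was -0.01 relative to all pairs, that of 5' UTRs -0.08 and that of non-coding exons -0.09.

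**Figure D4:**
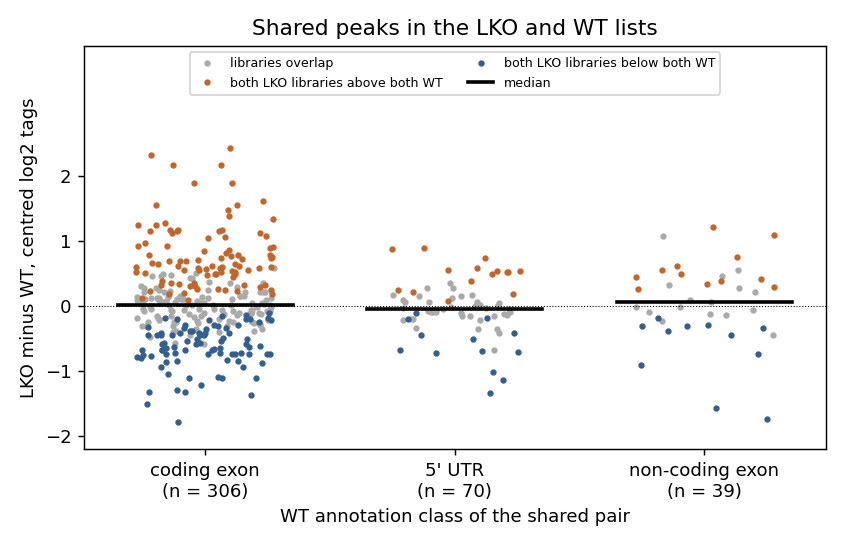
LKO minus WT difference of centred log2 tags (y axis) for each shared pair, by the WT class. Points are pairs, coloured by whether both LKO libraries were above, below or overlapping the WT libraries, and black bars are medians. Coding exon pairs ran from -1.78 to 2.43, and the medians were 0.02, -0.04 and 0.07.

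Shared peaks were ranked by mean WT level alone, a choice that can favour pairs lower in LKO. The strongest shared coding exon peak was in exon 10 of Myo1c, at chr11:75661458-75661668. Its log2 tags were 8.19 and 9.04 in WT, with 0.17 in input, and 8.40 and 8.39 in LKO, with 3.42 in input. After centring, the values were 3.18 and 3.51 in WT and 3.36 and 3.55 in LKO, so the genotypes overlapped. Peaks in the first exons of Abhd15, an abhydrolase gene, and Ppp1r3e, which encodes a glycogen-targeting subunit of protein phosphatase 1, also overlapped, with centred values of 2.96 and 3.28 against 3.18 and 3.28 for Abhd15 and of 2.90 and 3.09 against 3.09 and 3.32 for Ppp1r3e. Input was above the 95th percentile at Ppp1r3e in both lists, at Abhd15 in WT and at Myo1c in LKO.

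The fourth of these peaks, in exon 5 of the ephrin receptor gene Epha2, was lower in LKO without overlap, as were 25.2% of all shared pairs. Its centred values were 2.82 and 3.01 in WT and 2.14 and 2.00 in LKO, a difference of -0.84 with a pooled SD of 0.12, and input was low in both lists, at 0.11 and 0.30. The strongest 5' UTR peaks differed less. Gcnt2, encoding a branching glycosyltransferase, had 2.43 and 2.82 in WT and 2.70 and 2.65 in LKO, and Sod2, encoding mitochondrial superoxide dismutase, had 2.40 and 2.42 against 2.29 and 2.35. The peak in exon 1 of Ang, which shares its promoter region with Rnase4, had 2.20 and 2.50 against 2.35 and 2.66, and that of Hsdl2, a hydroxysteroid dehydrogenase-like gene, had 1.83 and 2.15 against 1.44 and 2.21. Only the Sod2 libraries did not overlap among these 4, with a difference of -0.10, and its WT input, 2.35, was above the 95th percentile.

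The strongest non-coding exon peak was in exon 3 of 4 of 0610043K17Rik, a transcript of no assigned role, with 3.08 and 3.35 in WT and 3.50 and 3.54 in LKO. It was followed by 9330175E14Rik, with 2.28 and 2.42 against 2.49 and 2.75, and 1700061I17Rik, with 1.97 and 1.81 against 1.56 and 1.63. Mospd4 came last, with 1.30 and 1.27 against 1.06 and 0.86. The first pair of transcripts was higher in LKO, by 0.30 and 0.27, and the other pair lower, by differences of -0.29 and -0.33, without overlap of the libraries. Over all shared pairs, 29.8% were above and 25.2% below without overlap. LKO input was above the 95th percentile at 1700061I17Rik, at 2.51, and at Mospd4, at 2.99.

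**Figure D5:**
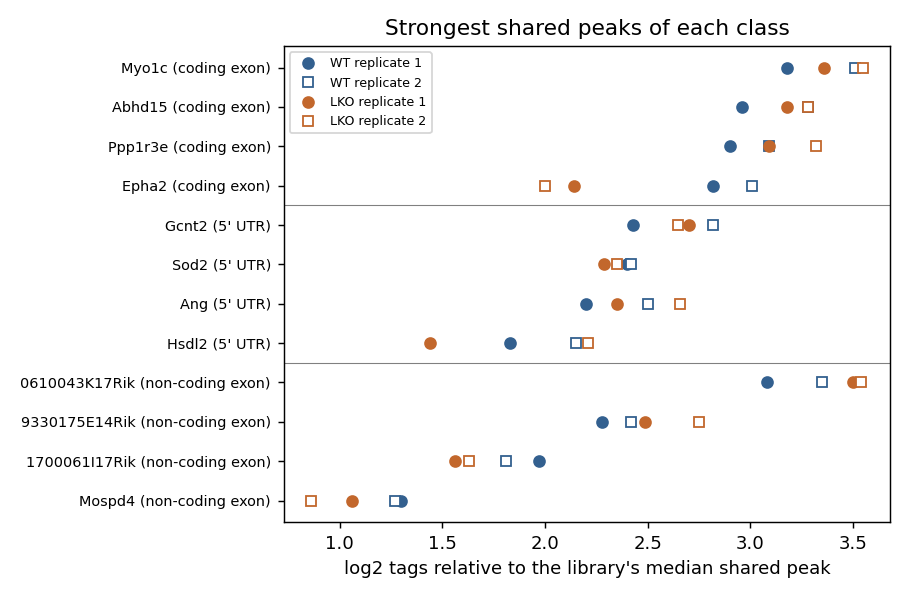
Centred log2 tags (x axis, relative to the median shared peak of the library) of the 4 strongest shared peaks of each class, named by host gene. Symbols are the 2 WT and 2 LKO ChIP libraries. Epha2 lay at 2.82 and 3.01 in WT and at 2.14 and 2.00 in LKO.

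The largest differences ran in both directions, and these pairs were chosen after the values were seen. Celsr1, which encodes an adhesion receptor of planar cell polarity, held peaks at both ends of the range. The peak in its exon 15 of 35, at chr15:85928264-85928474, was at 1.75 and 2.15 in WT and 0.43 and -0.08 in LKO, a difference of -1.78 and the lowest of the 415 pairs of the 3 classes. The peak in its exon 1, at chr15:86032866-86033076, was at -1.02 and -0.82 in WT and 1.27 and 1.22 in LKO, a difference of 2.17. Both peaks kept their class in both lists, and only the second had Celsr1 as its nearest gene.

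The highest differences were those of Dnajc14, an Hsp40 co-chaperone gene, in exon 2 of 7 (2.43), and Serpina11, a serpin gene, in exon 2 of 5 (2.32). The Dnajc14 peak was at -1.41 and -2.43 in WT and 0.67 and 0.35 in LKO, with a pooled SD of 0.53. It was weak in WT, with 35 pooled tags and rank 18990 of 20040. The Serpina11 peak was at -1.10 and -1.42 in WT and 1.21 and 0.93 in LKO, and it held an IR1 with 1 mismatch. Angptl2, encoding an angiopoietin-like secreted protein, gave 2.17 in exon 2 of 5, with -0.34 and 0.15 in WT and 2.01 and 2.13 in LKO. Zbtb20, a repressor gene of the liver, gave -1.50 in exon 8 of 9, and its WT input, 2.31, was above the 95th percentile. In the non-coding class E130310I04Rik gave -1.73 and Adck5 -1.56.

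Exon peaks made up 6 of the 113 WT peaks nearest to genes of bile acid metabolism (5.31%) and 1 of 62 LKO peaks (1.61%), against 3.9% and 4.2% of the whole lists. Of 28 such genes, 27 had a peak of any class in WT and 22 in LKO, but 5 and 1 had a peak in the 3 classes by nearest TSS. All 6 WT peaks were in coding exons, and 2 of them were shared, against 49.5% of all WT peaks and 54.9% of WT coding exon peaks. Slc27a5, the bile acid CoA ligase that precedes conjugation, had centred values of -0.54 and 0.00 in exon 1, with an IR1 of 2 mismatches, and -1.03 and -0.40 in exon 4 in WT. The exon 1 peak was matched in LKO by a peak of the intron class at -0.42 and -0.50. Abcc3, a basolateral bile acid exporter, had -1.06 and -1.41 in exon 18 of 31. The Abcb4 peak in Abcb1b was at -1.65 and -2.05 in WT and -1.49 and 0.03 in LKO, a difference of 1.12 with a pooled SD of 0.79. No WT value of the 6 peaks lay above 0.00, the level of the median shared peak.

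Of the lipoprotein and lipid genes, 4 of 32 in WT and 3 in LKO had peaks in the 3 classes. Of the 5 WT peaks 4 were shared, against 49.5% of all WT peaks. Exon peaks made up 3.88% of the WT and 4.4% of the LKO peaks nearest to these genes. Over the whole lists the shares were 3.9% and 4.2%. The coding exon peak of Lipc, hepatic lipase, in exon 6 of 9 was at 0.27 and 0.22 in WT and 1.84 and 1.77 in LKO, a difference of 1.56, with WT input of 2.29 above the 95th percentile. The libraries of the genotypes did not overlap. Fasn, fatty acid synthase, had a WT peak in exon 23 of 43 at -1.89 and -1.75 that was not shared. By host gene the list gained Lrp1 and Srebf1, which gave 8 peaks in each genotype.

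The deposited annotation gave 3 LKO coding exon peaks to Nxph4, and all of them lay in exons of Lrp1, an endocytic receptor for remnant lipoproteins. The peaks in its exons 34, 32 and 24 of 89 had centred values of 1.22 and 1.2, of 1.08 and 1.04, and of 0.64 and 0.10. The exon 34 and exon 32 peaks were coding exon peaks in WT as well, at 1.02 and 0.93 and at 1.53 and 1.71, so that LKO was higher by 0.23 at the first and lower, with a difference of -0.56, at the second. The exon 32 peak held an IR1 with 2 mismatches in both lists, and the exon 34 peak had high LKO input, at 2.49. The peaks lay within 1 gene and were not independent samples of the genome.

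Among coagulation and complement genes, 7 of 81 WT peaks (8.64%) and 1 of 43 LKO peaks (2.33%) were of the 3 classes. The shares over the whole lists were 3.9% and 4.2%, and no difference between the genotypes was tested. Of 33 genes, 7 had an exon peak in WT and 1 in LKO, while 31 and 27 had a peak of any class. The strongest was in the 5' UTR of F10, coagulation factor X, at 1.36 and 1.19 in WT and 1.27 and 0.85 in LKO, with overlap. The coding exon peak of C4b, a complement component, was at -0.81 and -0.51 with an IR1 of 2 mismatches and had no LKO partner. Those of Masp2, a complement-activating protease, at -1.55 and -1.45, and of Fga, the fibrinogen alpha chain, at -2.16 and -1.07, had none either. The peak assigned to F11, coagulation factor XI, lay in exon 7 of 15 of Klkb1, plasma prekallikrein, and was at -0.94 and -1.40. The peak assigned to C3 lay in exon 15 of 17 of Gpr108 and overlapped an LKO peak of the intron class, at -0.78 and -0.21 against 0.00 and 0.00.

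Among 26 genes of hepatic metabolism and plasma proteins, 2 had exon peaks in each list. Such peaks were 1.74% of the WT and 2.7% of the LKO peaks nearest to these genes, against 3.9% and 4.2% of the whole lists. Cps1, the entry enzyme of the urea cycle, had one in exon 4 of 38 at 0.73 and 0.86 in WT and -0.15 and 0.28 in LKO, lower without overlap, with a difference of -0.73. The peak nearest to Pklr, liver pyruvate kinase, lay in the last exon of Hcn3, a channel gene, and was not shared. Fetub, encoding fetuin B, had a 5' UTR peak in LKO only, at -1.52 and -1.09.

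Of 14 genes of well known non-coding RNAs, Neat1, the scaffold RNA of paraspeckles, was the one with a peak in the non-coding class. The peak was at 0.22 and 0.43 in WT and 0.36 and 0.49 in LKO, with overlap. It was 1 of 26 WT peaks (3.85%) and 1 of 15 LKO peaks (6.67%) nearest to these genes. The 3 classes made up 3.9% and 4.2% of the whole lists. Trp53cor1, known as lincRNA-p21, was the WT gene with 3 peaks of the 3 classes. They lay in its exons 2, 2 and 1 of 2, at 0.01 and 0.10, at -1.68 and -0.70 and at -0.75 and -0.80, and none held an IR1. All other genes had 1 or 2 such peaks: 723 and 28 genes in WT, and 488 and 17 in LKO.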

How the data were processed

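FXR ChIP-seq libraries (antibody E4B8P, chromatin fixed with DSG and formaldehyde, 100 bp single-end reads) and inputs were analysed as 6 samples in 4 groups. Per the submitters' processing notes, the authors used Bowtie 1.2, HOMER 4.10 and mm10. Peaks were called by them on both ChIP libraries pooled, against input, and retained if the log2 fold change exceeded 1 at an adjusted p-value limit of 0.05. The deposited value per library was taken, from its range, as regularized log2 tags. The deposited Peak Score is a signal, pooled tags per 10000000, and the authors also deposited the distance to the TSS and their own fold changes and p-values against input, which were not used.

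Classes, overlaps (1 bp or more), motifs (IR1 and DR1 with at most 2 mismatches, exact hexamer, both strands), GC content and host exons were computed with Python 3, numpy and pandas on GRCm38.p6. Host and nearest gene were compared by gene ID. Wilson and Newcombe intervals were used, and functions were tested on simulated data. Replicate numbers come from the labels, which do not say more on the animals. Depth limited precision most in WT replicate 2. The members, gene lists and tests were chosen with earlier results of these data known. Text names the 4 strongest shared peaks per class by mean WT level and up to 6 peaks per gene list. It also names the 2 strongest unshared peaks per class and list. Genes with 3 or more peaks are named too, as are selected sites with at most 1 mismatch. Alternatives were a stricter overlap, a stricter motif, the stronger 50% of peaks, RefSeq classes, other centring, means, each ChIP library left out and high input left out. Some results are not reported here.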

Additional observations from a re-analysis of the deposited data

How the results depend on the processing

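No paired analysis was possible because the genotype values come from no test; one on the centred values was left out, since both tables had been normalised separately. Of 105 alternative values for 27 results, 74 were labelled the same, 23 moved and 8 reversed in sign. A share was labelled the same within the Wilson interval of the main share, and a count within a fixed factor of the main count. Levels and differences had to keep their sign and stay within the SD between libraries. A level from a single ChIP replicate stays within that SD by construction, so only its sign could change. Counts in the stronger 50% of the list were 305, 80 and 45 in WT and 209, 51 and 25 in LKO for coding exons, 5' UTRs and non-coding exons, by construction. With at most 1 mismatch the IR1 share was 4.31%, 0.699% and 0% in WT and 5.53%, 1.12% and 3.57% in LKO, against 2.43% and 3.51% of other peaks, so the coding exon excess kept its direction. In the stronger 50% of LKO the coding exon IR1 share was 27.3%, against 21.4% of other peaks. Overlap within the stronger 50% of each list was 94.1%, 92.0% and 81.8% for LKO 5' UTRs, non-coding exons and coding exons, against 85.0% of other LKO peaks, and 44.4% for WT non-coding exons, against 53.0%. The level excess of 5' UTR peaks was 0.12 in WT and -0.02 in LKO without high input, and 0.21 in LKO by means. Leaving out peaks of high input, chosen for the overlap and motif shares after seeing the data, moved none of those shares past its interval. Without single WT replicates the non-coding exon level ran from -0.07 to 0.14.

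Relative to all shared pairs, the LKO minus WT median was -0.01 for coding exons, -0.07 for 5' UTRs and 0.04 for non-coding exons. With single replicates left out it ran from -0.03 to 0.01, from -0.08 to -0.05 and from -0.09 to 0.20. By means it was -0.11 for 5' UTRs and -0.02 for non-coding exons, and in the stronger 50% 0.02 and -0.09. No direction of these medians is therefore stated; the cause was not tested.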
